A study of Homo sapiens with 54 samples.

Results

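H1 (WA01) is a human embryonic stem cell (ESC) line, and 1 culture of it was differentiated in vitro through embryoid bodies, clumps in which ESCs leave pluripotency and form derivatives of the germ layers. This culture, chosen by its sample title, was measured on 2 one-colour Agilent arrays and was set against the 3 H1 pre-cultures in E8 Medium, measured on 6 arrays. Of the 54 arrays and 27 cultures of the series, this comparison thus uses 8 arrays and 4 cultures. The other cultures are of H1, the human ESC line KhES-1 and the human induced pluripotent stem cell lines 201B7 and 253G1. They were grown with basic fibroblast growth factor (bFGF), with FGFC (a chimera of FGF1 and FGF2) or, for H1, for 4 days without FGF. KhES-1 and 201B7 grew on mouse embryonic fibroblast feeder cells, and some H1 cultures in medium conditioned by such cells. The rest grew in E8 Medium, with or without its FGF. Feeder and conditioned-medium cultures had FGF at lower concentrations than E8 Medium. The pre-cultures, at passages 48, 49 and 50, were grown without feeder cells in E8 Medium, that is Essential 6 Medium with 2 ng/mL of TGF-beta 1 and 100 ng/mL of bFGF. The differentiated culture came from H1 kept in E8 Medium, its passage was not given in the sources used here, and it was kept without FGF. By the protocol given for the differentiation assay, clumps floated in non-adhesive dishes in DMEM-F12 with 20% knockout serum replacement, non-essential amino acids and 2-mercaptoethanol, were moved to gelatin at day 8 and stayed there for 11 more days. The labels leave out the period of this sample, so the day on which its RNA was taken is not given in the sources used here. Medium, growth as clumps, time and the absence of added FGF and TGF-beta 1 therefore differed together between the groups.

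ESCs hold pluripotency through a network of transcription factors around OCT4 (POU5F1), SOX2 and NANOG, which FGF and TGF-beta signals keep active in human cells. When these signals are withdrawn, genes of epiblast derivatives such as epidermis, neural tissue, neural crest, mesoderm and endoderm, and of extraembryonic tissues such as amnion, trophoblast and yolk sac, can be switched on. A differentiating embryoid body is a mixture of cell types, and in such a bulk RNA sample fewer cells of a type and less RNA per cell cannot be told apart.

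Levels are given as normalized signal, the log2 of the array signal minus the 75th percentile of its array, so that a probe at this percentile has the level 0, and levels of different probes are not compared. A probe was called higher or lower where limma's adjusted p was under 0.05 and the means differed 2-fold or more. The spread came from 13 cultures of H1 in 5 groups, and the lone differentiated culture was assumed to vary like the 4 groups of 3 cultures. Of 42405 probes, 4681 (11.0%) were called higher in the differentiated culture than in the pre-cultures and 4767 (11.2%) were called lower. With 1 probe for each of 20411 genes, 3146 genes (15.4%) rose and 2228 (10.9%) fell. By the means alone, 6055 probes (14.3%) were 2-fold or more higher and 6532 (15.4%) were as much lower. The 2 arrays of the differentiated culture correlated at r = 0.9831 across probes, the differentiated culture and the pre-cultures at 0.9133 to 0.9157, and the pre-cultures among themselves at 0.9817 to 0.9911. The share of probes well above background was 66.3% and 69.0% on the differentiated arrays and 62.4% to 74.5% on those of the pre-cultures. The differentiated arrays had a slide and a scan of their own, so that slide and group cannot be told apart. The study describes the 4-day series, with its pre-cultures, as 3 independent experiments. The labels give the pre-cultures numbers and passages but do not say how separately they were grown. The p-values therefore measure only the spread between these samples, which may be technical.

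**Figure D1:**
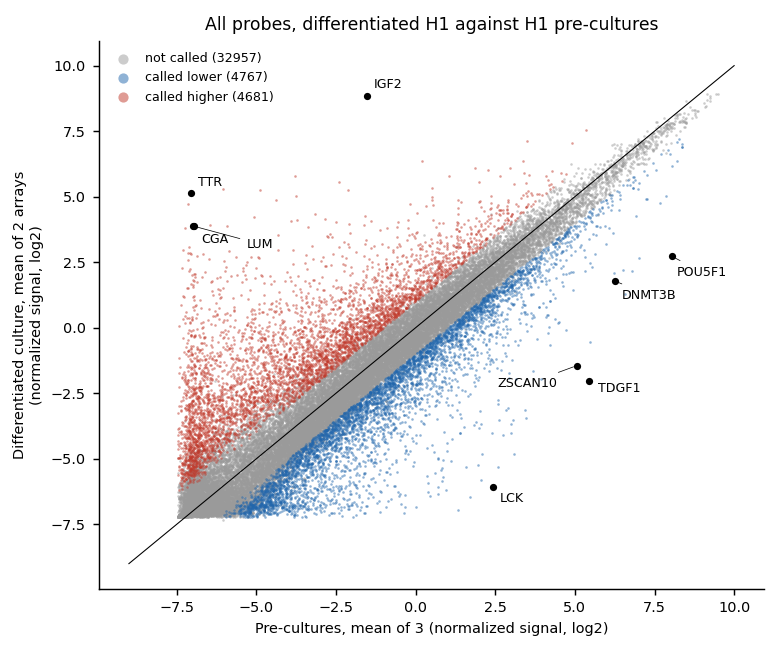
Level of each of the 42405 probes in the differentiated culture (vertical axis, mean of 2 arrays) against the mean of the 3 pre-cultures (horizontal axis), both as normalized signal on the log2 scale, with the line of equal levels. Probes called higher (4681) and lower (4767) lie on both sides of the line, with TTR, IGF2, CGA and LUM far above it and LCK, TDGF1 and POU5F1 far below it.

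The genes were described in 41 lists, 2 of markers that check the label and the others of lineages and programmes. Lists with at least 8 in 10 members higher were epidermis (14 of 14), trophoblast and amnion (13 of 14), fibroblast matrix (18 of 20), neuron (13 of 15), liver and yolk sac (14 of 17), cyclin-dependent kinase (CDK) inhibitors (6 of 7), neuroectoderm (12 of 15), pigment epithelium (8 of 10) and the BMP response (8 of 10), against 15.4% of all genes. Pluripotency had 17 of 20 members lower and mitosis and replication 10 of 19, against 10.9% of all genes. Blood had 0 of 12 members called, kidney 1 of 10, and skeletal muscle 1 higher and 2 lower of 11. The median log2 difference was 4.68 for trophoblast and amnion, 4.11 for epidermis and -3.65 for pluripotency, beside -0.0016 over all genes. After normexp, a background correction of limma that compresses low signals, these medians were 2.64, 2.57 and -3.19, that of neuroectoderm was 3.32 against 6.25, and that of liver and yolk sac 2.28 against 3.59. With genes that were above background in only 1 of the groups set to their lower bound, the median of trophoblast and amnion was 4.25 and those of epidermis and pluripotency were as before.

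**Figure D2:**
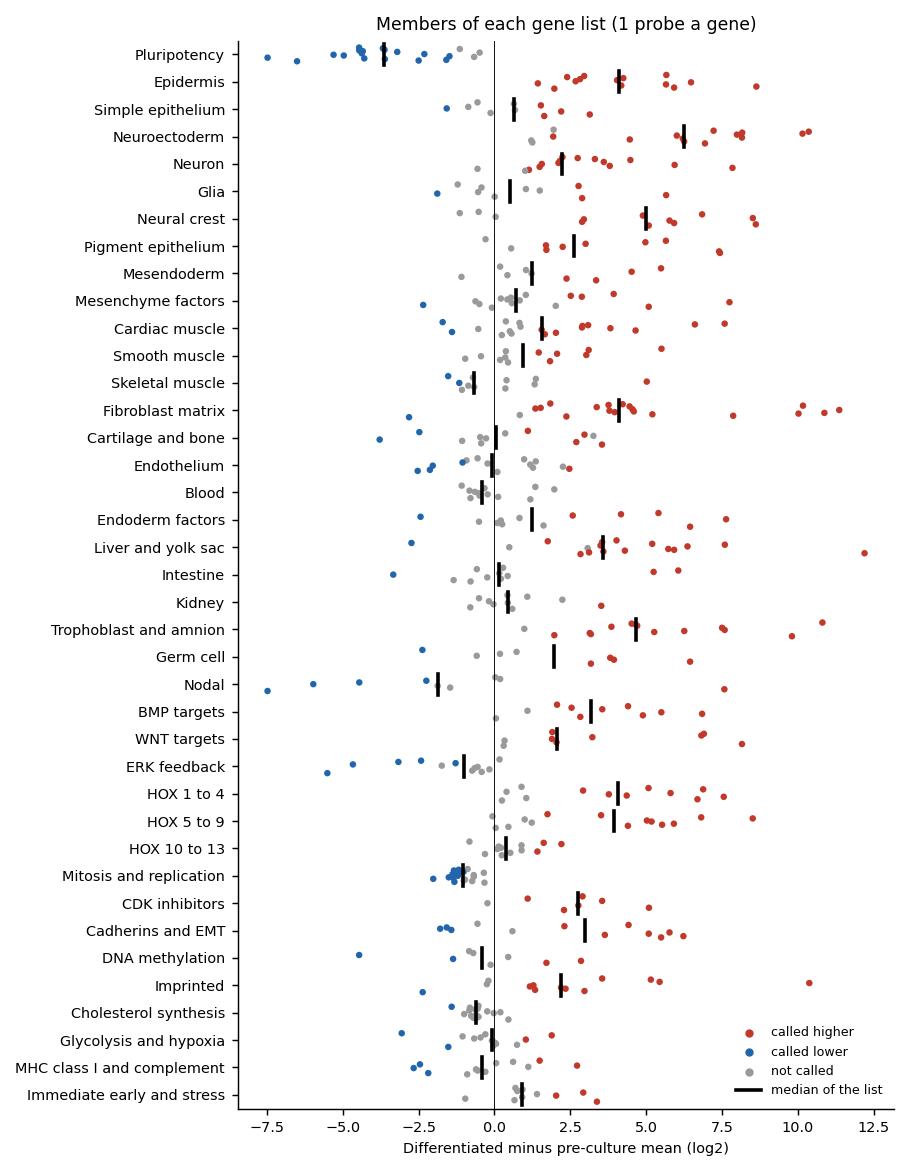
Each point is a gene of a list, shown by 1 probe, at its log2 difference between the differentiated culture and the mean of the 3 pre-cultures (horizontal axis); colours mark genes called higher, called lower and not called, and the black bar is the median of the list. Epidermis, trophoblast and amnion, fibroblast matrix and liver lie mostly to the right, with medians of 4.11, 4.68, 4.09 and 3.59, and pluripotency lies to the left.

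The label of the culture was checked first with markers of differentiation. PAX6, a neural and eye transcription factor, KRT14, a basal keratin of the epidermis, ZIC1, a neural zinc finger factor, SOX17, a factor of endoderm, and CDX2, a factor of hindgut and trophoblast, were not well above background on any array of the pre-cultures and were so on both differentiated arrays. Their bounds were at least 233-fold, 84.0-fold, 63.7-fold, 57.9-fold and 33.8-fold, against the lowest signal well above background. After 4 days without FGF, PAX6 and ZIC1 also lay above the pre-cultures, by means of 6.10 and 4.12. KRT14, SOX17 and CDX2 lay 0.35, 0.44 and 1.03 above them there. PAX6 and ZIC1 were not called higher in the differentiated culture than without FGF, and KRT14, SOX17 and CDX2 were. Of the study's 14 differentiation markers 12 rose, and 8 were called after normexp. The exceptions were PDGFRB, a receptor of mesenchyme, at 0.84 ± 0.30 (SE, adjusted p = 0.0617), and TNNT2, cardiac troponin T, at 0.24 ± 0.47 (adjusted p = 0.776). TNNT2 was at -0.11 and -0.40 on the differentiated arrays and at -0.17, -0.55 and -0.77 in the pre-cultures, and these values overlapped. TBXT (brachyury, the factor of the primitive streak) was called at a bound of at least 3.31-fold, but only 1 of its 2 arrays was well above background, at -3.11 and -5.64. TBXT was not called after normexp (0.49, adjusted p = 0.148) or with the second array of each culture alone (1.29, adjusted p = 0.0647).

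Expression of the pluripotency network fell, with 17 of 20 listed genes called lower. POU5F1 was at 3.41 and 2.06 on the 2 differentiated arrays and at 8.01, 8.00 and 8.11 in the pre-cultures. The groups lay far apart, although the differentiated arrays also differed from each other, and the fall in POU5F1 was a log2 difference of -5.30 ± 0.32 (adjusted p = 1.36e-06). NANOG, at -0.03 and -0.41 against 4.04, 4.02 and 4.39, fell by 4.37 ± 0.35 (adjusted p = 8.8e-06). TDGF1 (Cripto, the co-receptor of NODAL), at -1.25 and -2.83 against 5.43, 5.21 and 5.68, fell by 7.48, the most of the list. ZSCAN10, a zinc finger partner of the network, fell by 6.51. PRDM14, a repressor of differentiation genes, was the member that was not well above background on either differentiated array, and it was at least 18.6-fold lower. Further falls were those of DNMT3B, the de novo DNA methyltransferase (-4.46), GDF3, a TGF-beta family ligand (-4.46), L1TD1, an RNA-binding protein (-4.34), the telomere protein TERF1 (-4.29), TERT, the catalytic subunit of telomerase (-3.61), DPPA4 (-3.68), the neuropeptide galanin GAL (-3.62), ZFP42 (-2.50), PODXL, which carries surface epitopes of ESCs (-2.31), UTF1 (-1.59) and SALL4 (-1.48).

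Not every member of the network was called. SOX2, which also serves neural progenitors, was at 3.71 and 3.82 against 4.32, 4.35 and 4.64, a difference of -0.67 ± 0.23 (adjusted p = 0.0544). The differentiated arrays lay just below the pre-cultures, without overlap, and below all 26 other cultures. LIN28B, at 3.70 and 3.64 against 3.99, 4.09 and 4.39, differed by -0.49 (adjusted p = 0.189), whereas its paralog LIN28A, which like it blocks let-7 microRNAs, fell by 3.20 (adjusted p = 1.16e-05). FOXD3, a factor shared by ESCs and neural crest, differed by -1.14 (adjusted p = 0.0655), and it was the member that was higher than after 4 days without FGF (mean -2.59 there). The difference between LIN28A and LIN28B was not tested. In all, 19 of the 20 levels lay below those of all 26 other cultures, a position held by 15.6% of all genes, and FOXD3 was the exception.

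**Figure D3:**
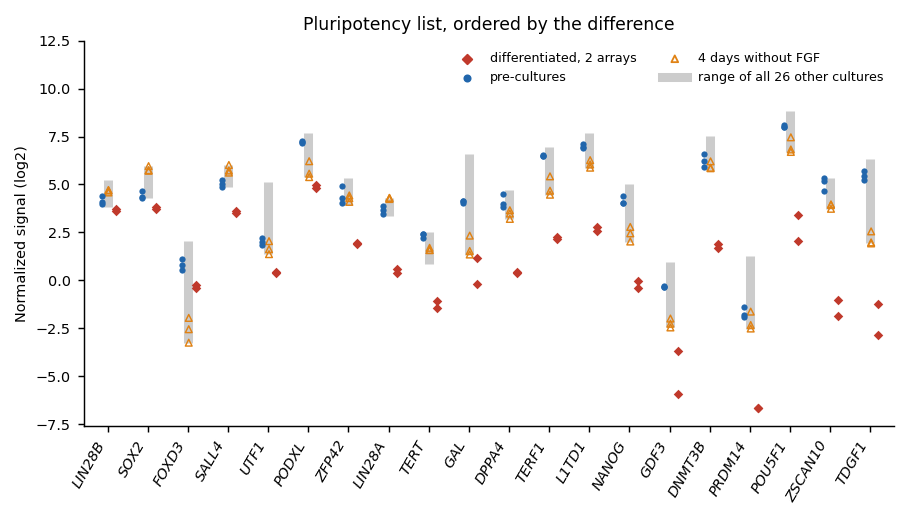
Normalized signal (vertical axis, log2) of the 20 pluripotency genes, ordered by their difference: red diamonds are the 2 arrays of the differentiated culture, blue points the 3 pre-cultures, open triangles the 3 cultures after 4 days without FGF, and grey bars the range of all 26 other cultures. The diamonds lie below the grey bar for 19 genes, by little for LIN28B and SOX2 and by far for TDGF1 and ZSCAN10.

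The promoter of NANOG is shown because OCT4, which fell with it, belongs to the POU factors that recognise octamer-type sites. It covers the 250 bases before the RefSeq gene start (chr12:7789152-7789401, plus strand, build GRCh38.p14), with the octamer-type letters TTTGCAT, which start 120 bases before the gene start, in capitals.
NANOG: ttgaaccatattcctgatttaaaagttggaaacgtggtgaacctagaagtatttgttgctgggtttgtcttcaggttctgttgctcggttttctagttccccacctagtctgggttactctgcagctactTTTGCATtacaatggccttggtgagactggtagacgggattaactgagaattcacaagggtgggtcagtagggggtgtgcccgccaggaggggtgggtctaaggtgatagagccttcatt
Searched on both strands, TTTGCAT was present in 3.94% of 35116 RefSeq promoters of this length and in 2 of the 13 pluripotency genes with a listed promoter, NANOG and SOX2. It was 1 of 11 motifs searched, some of which overlap it, and a match of letters is a description and no evidence of binding.

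Outside that list, the largest falls included genes of other functions that are known from cells of other kinds. LCK, a kinase of T cell receptor signalling, was at -5.82 and -6.34 against 2.27, 2.56 and 2.45 and was at least 323-fold lower (adjusted p = 5.63e-08). The differentiated arrays were not above background and all pre-cultures were. IDO1, which degrades tryptophan, was at least 121-fold lower, and TNFRSF8 (CD30), a receptor also found on embryonal carcinoma cells, fell by 6.17. Of muscle genes, TRDN (triadin, of the sarcoplasmic reticulum) fell by 6.68 and MYH2 (a fast myosin heavy chain) was at least 64.7-fold lower. GLB1L3, C1orf94 and FOXL2NB were at least 46.6-fold, 44.0-fold and 74.9-fold lower.

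Epidermal genes rose, and all 14 members of the list were called higher, with a median difference of 4.11. KRT5, the basal keratin that pairs with KRT14, was at 1.33 and 1.67 on the differentiated arrays and at -7.03, -7.76 and -6.62 in the pre-cultures, at least 195-fold higher (fitted difference 8.64 ± 0.51, adjusted p = 1.29e-06). KRT14 was at 0.40 and 0.62 against -5.94, -6.50 and -5.47. In both cases the pre-cultures were not above background and the groups lay far apart. TP63, the master factor of stratified epithelium, was at -4.96 and -4.20 against -6.56, -6.51 and -6.59 and was above background on 1 of the 2 arrays, so that its call at 1.97 was made near background. Junction and anchoring genes rose as well, with COL17A1 of the hemidesmosome at 5.67, its partner ITGB4 at 2.82, and the desmosomal cadherins DSC3 at 2.96 and DSG3 at least 3.37-fold higher. KRT17 rose by 5.66, KRT4 and KRT13 of mucosal epithelium by 4.18 and 2.68, KRT15 by 1.43, and involucrin (IVL), a protein of the cornified envelope, by 4.04. TFAP2A, a factor of surface ectoderm, rose by 5.92. GRHL3, a factor of the epidermal barrier, rose by 4.25, while its dimmer other probe differed by -1.04.

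In simple epithelium 4 of 10 genes rose and 1 fell. KRT7 was at 5.65 and 5.92 against 2.46, 2.90 and 2.58 and rose by 3.14 (adjusted p = 1.67e-05), and KRT19, KRT8 and CLDN4 rose by 2.20, 1.64 and 1.53. EPCAM, an adhesion molecule of ESCs and epithelia, fell by 1.57. E-cadherin (CDH1) was at 2.79 and 2.87 against 3.46, 3.36 and 3.34, a difference of -0.56 that was not called (adjusted p = 0.188). With only these 4 cultures in the fit EPCAM was not called (adjusted p = 0.0504).

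Factors of the neural plate and forebrain were among the highest gains, with 12 of 15 neuroectoderm genes higher and a median of 6.25 (3.32 after normexp, and 5.99 with bounds in place of differences from background). EMX2, of the dorsal forebrain, was at 3.91 and 3.93 against -5.81, -7.00 and -6.52 and was at least 992-fold higher (adjusted p = 5.5e-05). HES5, the Notch target of neural progenitors, was at 5.19 and 5.34 against -4.66, -4.96 and -5.05 and rose by 10.16 ± 0.39 (adjusted p = 1.62e-07). PAX6, at 2.08 and 1.75 against -5.76, -6.48 and -6.50, was at least 233-fold higher, and its other probes were called as well, at 3.80 and 10.27. For each of these genes the groups did not overlap. LHX2 and DACH1 rose by 7.99 and 7.23, the pan-neural SOX1 was at least 30.6-fold higher and the proneural NEUROG2 at least 33.9-fold. ZIC1 was at least 63.7-fold higher and POU3F2, a factor of late progenitors, rose by 6.21. SOX3 (1.25, adjusted p = 0.0793) and SIX3 (1.21, adjusted p = 0.0906) were among the genes that were not called.

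This list was also the one in which the 4-day cultures without FGF lay highest above the pre-cultures, by a median of 3.51. RAX, a factor of the eye field, was at -0.35 and -0.62 on the differentiated arrays, -4.48, -5.22 and -5.14 in the pre-cultures and 1.86, 3.78 and 3.82 after 4 days without FGF. RAX was thus highest in the cultures without FGF, as were OTX2, with a mean of 1.84 there against 0.38 and 0.16, and SIX3, with 0.53 against -2.94 and -3.24. These 3 genes were called lower in the differentiated culture than without FGF, and 5 members (EMX2, HES5, SOX1, POU3F2 and NEUROG2) were called higher.

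Neuronal genes rose in 13 of 15 cases, by a median of 2.24. STMN2, which regulates microtubules in growing axons, was at 4.06 and 4.20 against -3.17, -3.28 and -4.70 and rose by 7.85 ± 0.49 (adjusted p = 1.69e-06). Peripherin (PRPH), an intermediate filament of peripheral neurons, was at 2.33 and 2.59 against -3.55, -3.57 and -3.32 and rose by 5.94. Both lay apart from all pre-cultures and from all 26 other cultures. SLC17A6, a vesicular glutamate transporter, rose by 3.80, GAD1, which makes GABA, was at least 11.1-fold higher, and TH, of dopamine synthesis, rose by 1.14. MAP2 of dendrites, the RNA-binding ELAVL4 and the neurofilaments NEFL and NEFM rose by 3.61, 3.31, 2.11 and 1.56. TUBB3 (1.01, adjusted p = 0.0539) and the synaptic protein SYT1 (-0.56, adjusted p = 0.159) were not called. Of 10 glial genes, S100B, SOX10 and FABP7 of radial glia rose by 5.66, 2.89 and 2.77 and PTPRZ1 fell by 1.88. GFAP of astrocytes and OLIG2 of oligodendrocyte progenitors were not well above background on any array of either group. After normexp GAD1 was not called (1.33, adjusted p = 0.0858) and TH differed by less than 2-fold (0.91), and with only these 4 cultures in the fit TH had an adjusted p of 0.0664.

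Neural crest genes rose in 9 of 12 cases. TFAP2B was at 1.48 and 1.76 against -6.41, -7.88 and -6.71 and was at least 211-fold higher, and PAX3, at 1.43 and 1.66 against -6.95, -7.36 and -6.60, at least 201-fold. The pre-cultures were at background for both genes, and the groups did not overlap. MSX1 and SNAI2 rose by 6.85 and 5.77, and SOX10 was at -1.32 and -1.38 against -4.18, -4.13 and -4.40. NGFR (0.04, adjusted p = 0.956) and ETS1 (-0.52, adjusted p = 0.382) were not called.

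Genes of pigment cells rose in 8 of 10 cases. Tyrosinase (TYR), which starts melanin synthesis, was at 0.27 and 0.80 against -6.95, -7.02 and -6.64 and was at least 91.7-fold higher (adjusted p = 5.78e-07). TYRP1 was at least 149-fold higher, DCT rose by 5.65, and MITF, the factor that drives them, was at 1.36 and 1.39 against -3.76, -3.32 and -3.72 and rose by 4.98 (adjusted p = 0.000227). All differentiated values lay above all values of the pre-cultures. PMEL of the melanosome matrix, SERPINF1 and RLBP1 of retinal pigment epithelium rose by 1.70, 1.71 and 2.25. RPE65, the retinal isomerase, was at background on all arrays of both groups.

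Genes of the primitive streak and early mesoderm rose in 4 of 9 cases. EOMES was at -1.17 and -1.72 against -6.86, -7.11 and -6.85 and was at least 25.0-fold higher, MESP1 of early cardiac mesoderm rose by 4.52 and WNT3 by 3.35. MIXL1 (1.23, adjusted p = 0.0645), GSC (1.04, adjusted p = 0.23) and TBX6 (-1.09, adjusted p = 0.169) were not called. CER1 and MSGN1 were at background on all arrays of both groups.

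Extracellular matrix of mesenchyme was among the strongest gains, with 18 of 20 genes higher. LUM (lumican, a collagen-binding proteoglycan) was at 3.86 and 3.90 against -6.88, -7.58 and -6.52 and was at least 1016-fold higher (fitted difference 10.88 ± 0.50, adjusted p = 3.48e-07). COL3A1, a fibrillar collagen, was at 3.10 and 3.04 against -6.93, -7.72 and -6.67, at least 576-fold higher. COL1A1, which the pre-cultures expressed at 1.81, 2.15 and 1.66, was at 6.05 and 6.15 and rose by 4.23. None of these values overlapped between the groups. DCN (decorin) rose by 11.37 and the calcification inhibitor MGP was at least 502-fold higher. For DCN another culture of the series, with 7.08, lay above the 5.21 and 5.41 of the differentiated arrays. POSTN, PDGFRA, FN1, COL5A1 and LOX, the collagen crosslinker, rose by 7.87, 5.21, 4.59, 4.46 and 3.96. THY1, a surface protein of fibroblasts that ESCs carry too, was at 2.73 and 2.91 against 5.58, 5.78 and 5.54 and fell by 2.81 (adjusted p = 3.34e-05).

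Of 16 mesenchymal transcription factors 5 rose (3 after normexp) and 1 fell. PRRX1 of limb and craniofacial mesenchyme was at 0.87 and 0.77 against -6.87, -7.31 and -6.62 and was at least 121-fold higher (adjusted p = 7.45e-05). FOXC1 and FOXF1 of splanchnic mesoderm rose by 3.93 and 2.52, MEOX1 of somites was at least 4.19-fold higher, and TWIST1 rose by 5.09 on the only differentiated array that gave a value. TCF15, of paraxial mesoderm, was at 2.68, 2.76 and 3.21 in the pre-cultures and fell by 2.35. TWIST2, TBX18, OSR1 and MEOX2 were at background on all arrays of both groups. TWIST1 was not called from the first array of each culture alone (5.20, adjusted p = 0.0681), and MEOX1 was not called after normexp (0.52, adjusted p = 0.0556).

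Muscle and heart genes moved unevenly. HAND1, of extraembryonic and cardiac mesoderm, was at 1.83 and 1.23 against -5.69, -6.21 and -6.28 and rose by 7.59 ± 0.61 (adjusted p = 8.8e-06), and its paralog HAND2 was at least 46.5-fold higher. In the cardiac list 10 of 19 genes rose and 2 fell, the former including NPPB (4.65), the atrial light chain MYL7 (3.82) and the heavy chains MYH6 (3.09) and MYH7 (2.90). NPPA was called at 1.56 although it was not well above background on any array. ACTC1 (cardiac actin) and PLN (phospholamban) were also at background on all arrays of both groups, while RYR2, the calcium release channel, fell by 1.40 and ACTN2 was at least 3.27-fold lower. NKX2-5, at 6.19 and 6.18 against 6.66, 7.01 and 6.48, was not called (-0.53, adjusted p = 0.206) and its probe was high in all cultures.

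Of 12 smooth muscle genes 6 rose. ACTA2 (smooth muscle actin) was at 3.22 and 3.33 against -2.52, -2.47 and -1.71 and rose by 5.51 (adjusted p = 8.84e-05), and ACTG2, desmin (DES), TAGLN and CNN1 rose by 3.11, 2.07, 1.83 and 1.46, and LMOD1 was at least 5.24-fold higher. MYH11, the heavy chain of mature smooth muscle, was at -2.98 and -3.16 against -2.78, -2.58 and -2.53 and was not called (adjusted p = 0.337). The transcriptional cofactor MYOCD was not above background on the differentiated arrays. Of 11 skeletal muscle genes, MYF6 was at least 20.2-fold higher, ACTA1 and MYH3 fell by 1.53 and 1.16, and MYF5 was at background. PAX7, of muscle stem cells and dorsal neural tube, differed by 0.36 on its shown probe and was called at 6.49 on its other probe, which was at 0.70 and 0.86 on the differentiated arrays. Of these genes LMOD1 differed by less than 2-fold after normexp (0.74), and the calls of MYH3 and ACTA1 were lost without pre-culture 1 (MYH3, -1.06, adjusted p = 0.0521) or without pre-culture 3 (ACTA1, -1.32, adjusted p = 0.0538).

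Of 12 cartilage and bone genes 4 rose and 2 fell. SPP1 (osteopontin), SOX9 (the chondrocyte factor) and aggrecan (ACAN) rose by 3.55, 2.70 and 1.10, and COL11A1 was at least 4.73-fold higher. ALPL, the alkaline phosphatase that ESCs also express, was at -0.80 and -1.40 against 1.06, 1.77 and 1.30 and fell by 2.48, and MATN4 fell by 3.78. COL2A1 differed by 3.26 ± 1.25 and was not called (adjusted p = 0.0789), and RUNX2, the osteoblast factor, was not above background on the differentiated arrays. COL11A1 was not called after normexp (0.60, adjusted p = 0.116).

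Endothelial and blood genes were not gained as lists. Of 14 endothelial genes SOX7 alone was called higher, at least 4.47-fold, and 4 fell. KDR, the VEGF receptor that undifferentiated H1 expressed at 1.21, 1.37 and 0.71, was at -0.76 and -1.12 and fell by 2.03 ± 0.33 (adjusted p = 0.00093). The angiopoietin receptor TEK, its relative TIE1 and ENG fell by 2.13, 2.53 and 1.05. CDH5 (VE-cadherin) was at -2.83 and -3.04 against -2.29, -2.33 and -2.50 (adjusted p = 0.242), VWF at -2.27 and -2.08 against -2.19, -2.19 and -2.43 (adjusted p = 0.842), and PECAM1 differed by 2.26 (adjusted p = 0.0673). Of 12 blood genes 0 were called by the shown probe with limma (HBE1, HBG1 and HBZ, 3 in all, had an unadjusted p under 0.05), and HBG1 had an adjusted p under 0.05 at a difference under 2-fold (-0.82, adjusted p = 0.0301). The embryonic globin HBE1 differed by 1.97 (adjusted p = 0.0749), the leukocyte marker PTPRC by -0.49 and the erythroid factor GATA1 by 1.35. For RUNX1, a factor of blood and of other tissues, the shown probe differed by 0.12 and 3 of the 4 other probes were called higher, by up to 5.46. The call of SOX7, at a fitted difference of 2.47, was lost after normexp (0.56), with the second array of each culture alone (adjusted p = 0.142), without pre-culture 2 (2.03, adjusted p = 0.0577) and with only these 4 cultures in the fit (adjusted p = 0.0571).

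Genes of endoderm rose in part, and those of liver and yolk sac rose in 14 of 17 cases. SOX17 was at -0.04 and -0.38 against -6.71, -7.07 and -6.20 and was at least 57.9-fold higher (adjusted p = 5.39e-05), and GATA6 was at least 110.3-fold higher. The pre-cultures were at background for both, and the groups lay far apart. CXCR4 and FOXA2 rose by 5.41 and 2.58, FOXA1 was at least 9.41-fold higher, and FOXA3 fell by 2.44. HNF4A, HHEX and PDX1, of liver and pancreas, were at background on all arrays of both groups, and GATA4 differed by 0.83 (adjusted p = 0.253). HNF4A is a known regulator of many of the plasma protein genes described next.

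TTR (transthyretin, the carrier of thyroid hormone) was among the largest rises. It was at 5.40 and 4.89 on the differentiated arrays and at -6.82, -7.71 and -6.64 in the pre-cultures, at least 2432-fold higher (fitted difference 12.20 ± 0.47, adjusted p = 1.62e-07). No other culture of the series reached it, the highest being at -5.05. The apolipoproteins APOA2 and APOA1 rose by 7.60 and 5.20, APOC3 and APOB were at least 43.0-fold and 10.8-fold higher, and the fibrinogen chain FGG rose by 5.92 and FGB was at least 25.6-fold higher. AFP (alpha-fetoprotein) was at 4.07 and 3.51 against -0.79, -0.64 and 0.72 and rose by 4.02 (adjusted p = 0.000846), while ALB (albumin) was at -2.69 and -2.88 against -5.55, -6.77 and -6.68 and was at least 9.35-fold higher (adjusted p = 0.00235). Neither overlapped between the groups, though another culture of the series reached 4.14 for AFP. RBP4, SERPINA1, VTN and AHSG rose by 4.30, 3.59, 2.84 and 1.76, and TF was at least 5.68-fold higher. AMBP, a precursor of plasma proteins, was at -0.01, -0.10 and 0.25 in the pre-cultures and fell by 2.74 (adjusted p = 1.55e-05), and APOH was at background throughout. Yolk sac and fetal liver share most of these genes, so the list does not separate them. After normexp ALB differed by 1.00, just under 2-fold (adjusted p = 0.00492).

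The promoters of ALB and AFP, which lie near each other on chromosome 4, are shown because both genes rose and both carry the letters GTTAAT, part of the site that HNF1 factors recognise. Each is the 250 bases before the RefSeq gene start in build GRCh38.p14, on the plus strand (ALB chr4:73404037-73404286, AFP chr4:73435971-73436220), with GTTAAT in capitals, 61 bases before the start of ALB and 132 before that of AFP.
ALB: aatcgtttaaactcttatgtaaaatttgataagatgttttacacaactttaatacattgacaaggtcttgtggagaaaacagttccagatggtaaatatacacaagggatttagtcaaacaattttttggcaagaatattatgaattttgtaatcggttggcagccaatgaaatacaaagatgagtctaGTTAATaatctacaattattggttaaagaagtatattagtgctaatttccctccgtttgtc
AFP: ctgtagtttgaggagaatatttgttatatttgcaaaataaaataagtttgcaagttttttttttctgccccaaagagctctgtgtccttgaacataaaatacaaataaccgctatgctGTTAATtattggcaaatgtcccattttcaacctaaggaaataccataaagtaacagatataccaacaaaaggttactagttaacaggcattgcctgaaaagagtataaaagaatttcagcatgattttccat
On either strand, GTTAAT was present in 6.23% of 35116 promoters and in 6 of 13 liver and yolk sac genes with a listed promoter (AFP, ALB, APOH, FGA, FGB and SERPINA1). It was also present in 2 of 13 pluripotency genes (NANOG and TDGF1), and TTTGCAT was present in 0 of the 13 liver and yolk sac genes. Of the 6 genes, AFP, ALB, FGB and SERPINA1 were called higher and APOH and the shown probe of FGA (3.07, adjusted p = 0.0876) were not.

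Intestine had 2 genes called higher and 1 lower of 11, near the shares over all genes (15.4% and 10.9%), and kidney 1 higher of 10. CDX2 was at -1.25 and -0.80 against -6.97, -7.49 and -6.80 and FABP1, a fatty acid binding protein of gut, liver and yolk sac, rose by 5.25, whereas GUCY2C was at least 7.02-fold lower. CDH17, SI and FABP2 of the mature gut were at background throughout. WT1, of the kidney list, was at background.

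Trophoblast and amnion genes rose in 13 of 14 cases. CGA, the common subunit of the glycoprotein hormones including chorionic gonadotropin, was at 4.19 and 3.54 against -6.93, -7.70 and -6.22 and was at least 1003-fold higher (adjusted p = 8.47e-07). VTCN1, an immune checkpoint protein found in amnion and trophoblast, was at 3.88 and 3.87 against -5.96, -6.22 and -5.62, at least 839.7-fold higher (adjusted p = 5.63e-08). Both were above all 26 other cultures and did not overlap with the pre-cultures. The other probe of VTCN1 differed by 1.43 and was not called. GATA3 rose by 7.51, IGFBP3 by 6.26, GABRP of amnion by 4.71 and TFAP2C by 3.18. ISL1, ELF5, GATA2 and CYP19A1 (placental aromatase) were at least 27.8-fold, 10.9-fold, 8.66-fold and 13.8-fold higher. GCM1, the factor of syncytiotrophoblast, differed by 0.99 and was not called (adjusted p = 0.123). Several members (KRT7, TP63, HAND1 and TFAP2C) are shared with the lists of simple epithelium, epidermis, cardiac muscle or germ cells. In the germ cell list 4 of 8 genes rose, of which NANOS3 at 3.82 and PRDM1 at 3.94 stand beside SOX17 and TFAP2C. DAZL was at least 2.69-fold lower, and DDX4 was at background.

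**Figure D4:**
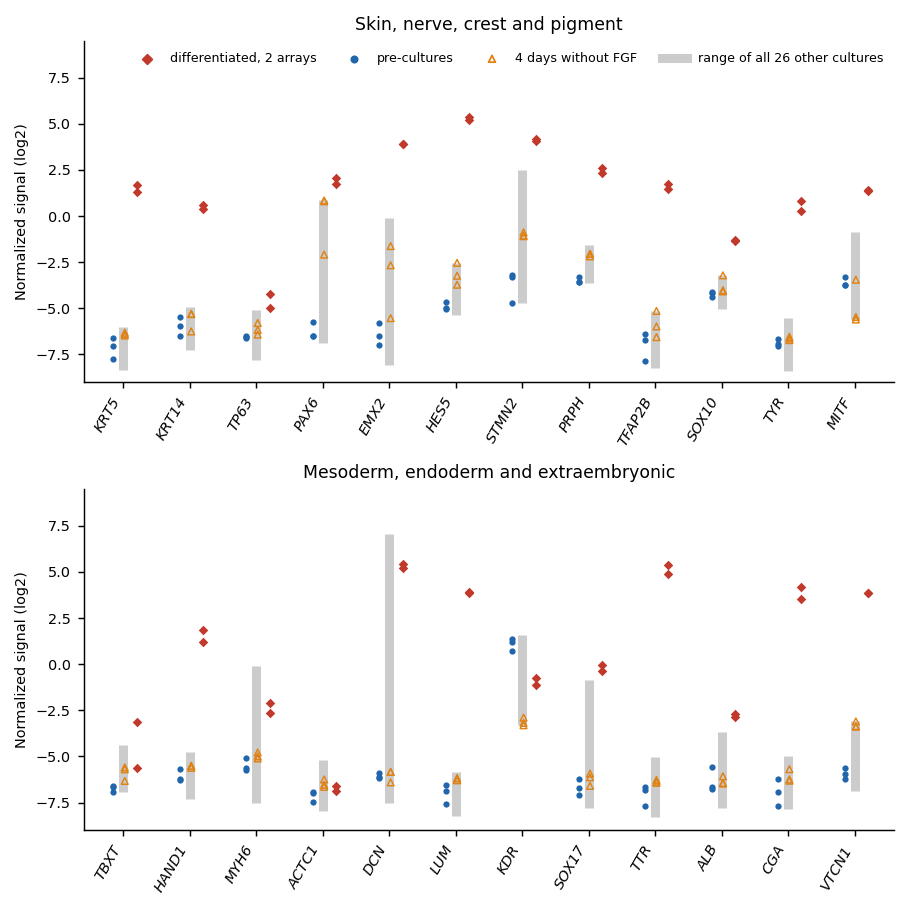
Normalized signal (vertical axis, log2) of 24 lineage genes, with red diamonds for the 2 arrays of the differentiated culture, blue points for the 3 pre-cultures, open triangles for the 3 cultures after 4 days without FGF and grey bars for the range of all 26 other cultures. The diamonds stand above the grey bar for KRT5, TYR, LUM, TTR and CGA, within it for DCN, MYH6 and KDR, and at background for ACTC1.

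HOX genes, which give cells their position along the body axis, were among the genes gained from background. Of the paralogs 1 to 4, 8 of 12 rose, of 5 to 9 it was 9 of 14, and of 10 to 13 it was 3 of 12. HOXB6 was at 1.36 and 1.07 against -7.10, -7.95 and -6.84 and was at least 159.8-fold higher (adjusted p = 1.56e-06). HOXC4, HOXD3, HOXB5, HOXA3 and HOXC6 were at least 89.9-fold, 70.4-fold, 66.4-fold, 51.7-fold and 51.0-fold higher. HOXB9 and HOXC9, the highest paralogs that were both called and well above background on both arrays, were at least 20.9-fold and 8.77-fold higher. The 3 called genes of the last group, HOXA13, HOXA11 and HOXD10, had fitted differences of 2.21, 1.62 and 1.42, but HOXA13 (at least 2.32-fold) was above background on 1 array and the others on none. HOXA9 differed by -0.07 on the shown probe and was called at 4.21 on its other probe. Within the HOXD cluster HOXD3 was the only gene called beside HOXD10. HOXC6, HOXB6, HOXC4 and HOXC8 reached 3.79, 3.40, 0.92 and 1.53 in another culture of the series, above the differentiated culture. None of HOXA13, HOXA11 and HOXD10 was called after normexp (0.42, 0.13 and 0.08) or from the first array of each culture alone, and HOXD10 lost its call without pre-culture 1 (1.47, adjusted p = 0.0678) or 2 (1.09, adjusted p = 0.0938).

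**Figure D5:**
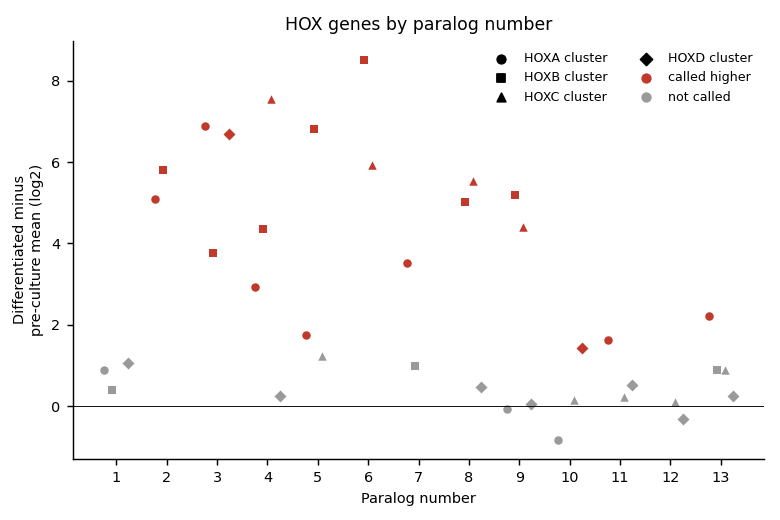
Log2 difference between the differentiated culture and the mean of the 3 pre-cultures (vertical axis) for the HOX genes by paralog number (horizontal axis), with symbols for the 4 clusters and red for genes called higher. Called genes are spread over paralogs 2 to 9, up to 8.52 for HOXB6, and paralogs 10 to 13 lie near 0 or were called at up to 2.21.

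COUP transcription factors were also among the largest rises. NR2F1 was at 4.70 and 4.70 against -6.99, -7.76 and -6.70 and was at least 1792-fold higher (adjusted p = 1.39e-05), and NR2F2, at 3.95 and 3.97 against -6.82, -7.66 and -6.39, at least 1073-fold. Both are orphan nuclear receptors of neural, crest and mesenchymal cells, and neither overlapped with the pre-cultures. EMX2OS, the transcript antisense to EMX2, was at least 962-fold higher. After 4 days without FGF, NR2F2, EMX2OS and NR2F1 lay above the pre-cultures by means of 5.82, 4.06 and 2.73. EMX2OS and NR2F1 were not well above background on all arrays there. All of these genes were called higher in the differentiated culture than without FGF.

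Signalling programmes moved with different signs. Of 9 genes of the NODAL pathway 4 fell. LEFTY1, a secreted inhibitor and target of NODAL, was at -2.93 and -3.21 against 3.21, 3.09 and 2.39 and fell by 5.97 ± 0.80 (adjusted p = 0.00027). FOXH1, the DNA-binding partner of SMADs, fell by 2.25, and TDGF1 and GDF3 fell as given above. NODAL itself, at -1.53 and -3.02 against -0.55, -0.61 and -1.28, was not called (-1.46, adjusted p = 0.141), nor was LEFTY2 (-1.87, adjusted p = 0.06).

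Of 10 genes of the BMP response 8 rose, by a median of 3.19 over the list. BMP4, the ligand, was at 0.72 and 0.51 against -3.70, -3.76 and -3.90 and rose by 4.40 (adjusted p = 4.56e-05). The targets MSX1, ID4, ID2 and ID1 rose by 6.85, 5.50, 3.56 and 2.54 and MSX2 was at least 19.9-fold higher, and the inhibitors SMAD6 and BAMBI rose by 2.83 and 2.06. ID1 was at 4.61 and 4.58 in the differentiated culture and at 5.70, 4.33 and 4.58 after 4 days without FGF, and these ranges overlapped. Against the cultures without FGF, 2 of the 10 genes (MSX1 and BAMBI) were called higher.

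Of 9 WNT targets 7 rose. LEF1, the nuclear partner of beta-catenin, was at 3.01 and 2.95 against -3.97, -4.38 and -3.18 and rose by 6.82 (adjusted p = 1.83e-06). SP5 rose by 8.16, the secreted inhibitor DKK1 was at least 80.3-fold higher, and the feedback genes RNF43, AXIN2 and NKD1 rose by 2.05, 1.91 and 1.90. After 4 days without FGF, SP5, DKK1 and LEF1 lay 5.75, 5.07 and 4.27 above the pre-cultures, and the list by a median of 0.66. SP5 and DKK1 were not called higher in the differentiated culture than without FGF, and LEF1 was. TCF7 (0.30, adjusted p = 0.485) was not called.

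Of 12 feedback genes of FGF and ERK signalling 5 fell. SPRY4 was at -2.87 and -2.98 against 2.50, 2.75 and 2.50 and fell by 5.51 ± 0.48 (adjusted p = 1.5e-05), and ETV4, an ETS factor induced by FGF, was at -2.93 and -3.62 against 1.22, 1.62 and 1.34 and fell by 4.67. On these probes the groups lay far apart for both, while the other probe of SPRY4 differed by -0.86 and was not called. The phosphatases DUSP6 and DUSP5 fell by 3.17 and 2.42, and ETV1 by 1.28. SPRY2 (-0.42, adjusted p = 0.428), DUSP4 (0.17, adjusted p = 0.665) and ETV5 (-1.74, adjusted p = 0.0611) were not called. DUSP6 had a mean of 2.75 and SPRY4 of -0.16 after 4 days without FGF, so that SPRY4 was lower still in the differentiated culture.

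Cell cycle genes were lower, by less than the pluripotency genes. Of 19 genes of replication and mitosis 10 fell (3 with only these 4 cultures in the fit), with a median difference of -1.03, and 18 of 19 lay below all 26 other cultures. MCM5, of the replicative helicase, was at 2.23 and 2.08 against 3.76, 4.24 and 4.51 and fell by 2.02 (adjusted p = 0.000758). MCM3, CDC25A, MCM4, BUB1, PLK1, E2F1 and CCNE1 fell by 1.51, 1.38, 1.35, 1.34, 1.32, 1.21 and 1.19. MKI67 (-1.01, adjusted p = 0.0534) and TOP2A (-0.33, adjusted p = 0.529) were not called, and TOP2A was the exception to the low position. The CDK inhibitors rose in 6 of 7 cases. CDKN2C (p18) was at -1.62 and -1.48 against -6.47, -7.21 and -6.27 and was at least 23.4-fold higher, and CDKN1C (p57), CDKN1A (p21), CDKN2B (p15), CDKN2D (p19) and CDKN1B (p27) rose by 3.55, 2.90, 2.77, 2.29 and 1.10. CDKN2A was not called on its shown probe (-0.23) and was called at 2.54 on its other probe. With only these 4 cultures in the fit CDC25A and MCM4 were among the genes not called (adjusted p = 0.0954 and 0.0686), and after normexp CDKN2B differed by 0.77.

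Genes of mesenchymal shape and adhesion rose in 7 of 12 cases and 3 fell. ZEB1, a repressor of epithelial genes, was at 1.76 and 1.83 against -4.23, -4.34 and -4.71 and rose by 6.23 (adjusted p = 9.62e-05), and ZEB2 was at least 33.5-fold higher. CDH11, vimentin (VIM) and N-cadherin (CDH2) rose by 4.42, 3.64 and 2.31. The epithelial splicing factors ESRP1 and ESRP2 fell by 1.79 and 1.42, and SNAI1 was not called (0.59, adjusted p = 0.168).

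Of 13 imprinted genes 10 rose and 1 fell. IGF2, a fetal growth factor, was at 8.88 and 8.82 against -1.16, -1.20 and -2.21 and rose by 10.38 ± 0.38 (adjusted p = 1.51e-07). H19, the non-coding RNA beside it, was at 1.81 and 1.48 against -3.62, -3.95 and -3.84 and rose by 5.45, and CDKN1C of the same chromosome region rose as given above. The groups lay far apart for both genes, and all 26 other cultures were lower. DLK1, PLAGL1, PEG3 and PEG10 rose by 5.16, 2.97, 2.34 and 2.19. SNRPN fell by 2.37 and MEG3 was not called (-0.25). Of 8 genes of DNA methylation, DNMT3B and TET1 fell by 4.46 and 1.36 and TET2 rose by 2.85. TET3 was called at a fitted difference of 1.71 (at least 2.37-fold), but its arrays were at -6.58 and -2.99 and the call rests on the second of them, since with the first array of each culture the difference was -0.46. DNMT1 (-0.83, adjusted p = 0.118) and DNMT3A (-0.70, adjusted p = 0.104) were not called. TET3 was also not called without pre-culture 1 (1.70, adjusted p = 0.0771) or 2 (1.59, adjusted p = 0.0895).

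Metabolic lists were near or below the shares over all genes, 15.4% called higher and 10.9% called lower. Of 16 genes of cholesterol synthesis 1 was called, lower, and the median difference was -0.61. Of 14 genes of glycolysis and hypoxia, BNIP3 and LDHA rose by 1.89 and 1.03, and ADM and VEGFA fell by 3.06 and 1.52. Of 12 genes of antigen presentation and complement, the immunoproteasome subunit PSMB8 fell by 2.18 and C3 by 2.46. B2M, the light chain of class I molecules, rose by 1.49, HLA-B and HLA-C were not called (-0.61 and -0.55), and HLA genes share sequence, so that their probes may not be specific. Of 10 immediate early and stress genes, JUN, EGR1 and FOSB rose by 3.38, 2.93 and 2.04, and FOS (1.40, adjusted p = 0.188) and the heat shock gene HSPA1A (0.91, adjusted p = 0.334) were not called. Another culture of the series reached 1.01 for JUN and 4.86 for EGR1, above the differentiated culture. The calls of VEGFA and LDHA were lost without pre-culture 1 (-1.31 and 0.96, adjusted p = 0.0699 and 0.0809) and without pre-culture 2 (-1.38 and 1.01, adjusted p = 0.0695 and 0.0757), and that of BNIP3 without pre-culture 1 (1.93, adjusted p = 0.0618) and 3 (1.65, adjusted p = 0.079). FOSB was not called with only these 4 cultures in the fit (adjusted p = 0.0645).

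The differentiated culture was last set beside H1 kept for 4 days in E8 Medium without FGF, whose cultures correlated with it at r = 0.9254 to 0.9355 across probes, the last the highest of all 26. Against these 3 cultures 3784 probes (8.92%) were called higher and 3504 (8.26%) lower, and with 1 probe a gene 2607 genes (12.8%) were higher and 1741 (8.53%) lower. Both contrasts share the differentiated culture, and the arms without FGF and the pre-cultures were compared in the same fit. In the fibroblast matrix list 19 of 20 genes were higher than without FGF, where the list had a median of -0.43 against the pre-cultures. In liver and yolk sac 14 of 17 were higher and 1 lower, beside a median of 0.10 without FGF. In the pluripotency list 17 of 20 were lower than without FGF and FOXD3 was higher, beside a median of -0.83 there, with POU5F1 at 7.46, 6.83 and 6.70 and NANOG at 2.79, 2.45 and 2.02 in the 3 cultures without FGF. Neither gene overlapped between the 2 arms. Over all 27 cultures, 5198 probes (12.3%) had their highest level in the differentiated culture and 5425 (12.8%) their lowest, counting probes well above background on the higher side. Of the genes that rose, MYH6, NPPB, ACTG2, PDGFRA, HOXB6, ZEB1 and VIM were among those that another culture exceeded, with up to -0.07 for MYH6 and 6.54 for ACTG2.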

How the data were processed

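RNA of 27 cultures of human pluripotent stem cell lines, 1 of them differentiated, was hybridised to 54 one-colour (Cy3) Agilent whole-genome arrays, 2 for each culture. The authors read the arrays with Agilent Feature Extraction 10.7.3.1, and the deposited files hold, for each of 62976 spots, processed signal intensities after background subtraction, raw median and background intensities, and yes or no marks for saturation, outliers and signal well above background. The processed intensities of all 54 arrays equalled the deposited series table. No reads were counted, so no counting interval applies, and the number of arrays and of cultures limits the precision.

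Control spots (4259) and outlier spots (266 to 623 an array) were left out, 42405 probes were averaged over their spots, and the log2 of the signal (floor 1, lowest signal 1.75) minus each array's 75th percentile was averaged over the 2 arrays of a culture. No probe was saturated on any array. The files pair probes with accessions, and 25715 probes were named through RefSeq accessions and 1320 through the gene column of a supplementary table of the study, while 15370 stayed without a symbol. TDGF1 is listed by RefSeq as CRIPTO. Of several probes of a gene, the probe brightest on average over the 26 arrays of the fit was shown. On an array, a probe was taken as well above background where at least a share of 0.5 of its spots carried this mark. Where one side was not well above background on any array, the fold is given as at least the ratio to the lowest such signal of each array, or to the probe's own signal where that was higher.

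limma 3.58.1 (lmFit and eBayes, R 4.3.3) was fitted to 13 H1 cultures in E8 Medium in 5 groups, with Benjamini-Hochberg adjustment over all probes. Calls needed an adjusted p under 0.05 and a 2-fold difference. All p-values use the spread between the cultures of the replicated groups and none between differentiated cultures, of which there was 1. The differentiated arrays had a slide and a scan of their own, so these cannot be told apart from differentiation. The alternatives tried were normexp background correction (offset 50, on the median signal, since the files hold no mean signal), quantile normalization, a higher floor, a filter on dim probes, single arrays, a fit of 4 cultures, a reference of 7 cultures, the experiment number or the slide as a block, and leaving out each replicate. The steps were tested on simulated data.

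Genes named were the 10 largest rises and falls, up to 4 called genes of each list, the markers that the study and the cell type label name, and all pluripotency genes. Others were chosen after their values were seen, and some genes are not reported here. The comparison, its 41 lists (473 genes, 471 measured, without ISX and HOXA6) and its tests were chosen with earlier results of these data known. Python 3.11.15 with pandas 2.3.3, numpy 2.4.6 and matplotlib 3.10.9 made the summaries and plots.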

Additional observations from a re-analysis of the deposited data

How the results depend on the processing

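Of 163 called genes named, 136 kept their call and direction under every alternative. After normexp 3000 probes were called higher and 2722 lower against the pre-cultures, 2492 and 1999 against the cultures without FGF, and 3025 and 2763 differed 2-fold on means, and 17 named calls were lost (TH, ALB, SOX7, TBXT, GAD1, MEOX1, LMOD1, MYH3, COL11A1, LGR5, HOXA13, HOXA11, HOXD10, CDKN2B, TET3, CFB and FOSB). With only the 4 cultures in the fit 2802 probes were called lower, and 13 named calls were lost. The first arrays alone lost 7 named calls and turned TET3 to -0.46 (adjusted p = 0.699), and the second arrays lost 6. Adjusted p alone called 5300 probes higher and 5905 lower. The share of higher calls lay between 46.4% and 55.1% over the settings, against 49.5%. The median difference of all probes was -0.12 (-0.20 to -0.04 over the settings). FOXD3 was called lower under 5 alternatives. The list medians of cartilage and bone, endothelium, intestine, kidney, HOX paralogues 10 to 13 and glycolysis changed sign under some setting. The causes were not tested.

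Leaving out 1 pre-culture in turn gave 4212 to 4642 higher and 4324 to 4927 lower probes, and 5779 to 6485 and 6230 to 7108 by a 2-fold difference of means. Leaving out 1 culture without FGF gave 3291 to 3613 higher and 2996 to 3249 lower.

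With the experiment number of the titles as a replicate block, 4618 probes were called higher and 5329 lower (3683 and 4317 against the cultures without FGF), and HOXD10 and LDHA lost their call. Same-numbered cultures deviated together at r = -0.16 to 0.52, so the numbers were not taken to pair the cultures. Signal near background limits the genes given only as at least a fold, and 6 named genes could not be tested under the filter on dim probes.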

Other observations

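The 2 arrays of the differentiated culture were compared with each other. On 3030 probes they differed 2-fold or more, against 1735 to 7737 (median 2389.5) in the other 26 cultures. With both signals well above background this number was 379, against 62 to 482 (median 136) in the others, 1 of which was above it. Of 386 list genes well above background on both arrays, 9 were 2-fold or more brighter on the first array, namely TDGF1 (by 1.59 on the log2 scale), NODAL (1.50), CFB (1.38), GAL (1.36), POU5F1 (1.34), GCM1 (1.26), FOXA2 (1.08), GSC (1.05) and APOC3 (1.04). HOXB8 alone was as much dimmer on it (-1.60). The part of the array in the levels of these genes was not tested.

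Of 106 list genes with several probes, 13 were not called on the shown probe while another was called higher (among them GATA4, PAX7, PECAM1, RUNX1, FGA, CDX1, MUC2, EYA1, HOXA9, HOXA10, CDKN2A and MEG3), and for 2, SYT1 and GRB10, another was called lower. For 0 genes were 2 probes called in opposite directions by limma. Some genes called on the shown probe had another probe that was not called. Among them were VTCN1 (other probe 1.43), TH (0.18), SPRY4 (-0.86), LMOD1 (0.62), VEGFA (-0.49), LDHA (0.97) and C3 (-1.12), and GRHL3 as given above.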
